A study of Mus musculus with 15 samples.

Results

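The renin-angiotensin genes described here are 9 genes listed for their role in the control of blood pressure by the kidney: Ren1, Agt, Ace, Enpep, Agtr1a, Agtr1b, Atp6ap2, Ptgs2 and Nos1. Of these 9, 8 were measured by 1 probe set each that was annotated to the gene alone, out of 22180 genes with such a probe set. The platform annotation paired no probe set with Ren1, alone or together with another gene, so renin itself was not analysed here. The RNA of whole kidneys was hybridised to 1-colour arrays, 1 per mouse, for 8 Grhl1-/- mice, replicates 8 to 15, and 7 Grhl1+/+ mice, replicates 1 to 7, all aged about 6 months. Grhl1 is a member of the grainyhead family of transcription factors, which act in epithelia. The sources used here gave neither the design of the allele nor the strain, sex or batch of the mice. The deposited values are on the log2 scale after RMA, the robust multi-array average, so a difference of 1 is a 2-fold change, and differences are knockout minus wild type unless another pair is named.

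Renin, a protease released into the blood by granular cells of the glomerular arteriole, cuts angiotensinogen (Agt) to angiotensin I, and angiotensin-converting enzyme (Ace) then makes angiotensin II. Angiotensin II raises blood pressure and sodium retention through type 1 receptors, which in the mouse are encoded by the paralogs Agtr1a and Agtr1b, and it is degraded by peptidases such as glutamyl aminopeptidase (Enpep). The macula densa, a plaque of tubule cells beside the glomerulus, carries cyclooxygenase 2 (Ptgs2) and neuronal nitric oxide synthase (Nos1), whose products act on renin release, and Atp6ap2 encodes the (pro)renin receptor, which is also an accessory subunit of the V-ATPase proton pump.

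The promoter windows of Agt and Ace are shown because these were the members with the clearest difference between samples below. They are RefSeq sequences of the build GRCm38.p6, from 250 bases before to 50 bases after the annotated start, 5′ to 3′ on the strand of the gene, with each match of TATAAA or its reverse complement TTTATA in capitals.
Agt, chr8:124569657-124569956, minus strand: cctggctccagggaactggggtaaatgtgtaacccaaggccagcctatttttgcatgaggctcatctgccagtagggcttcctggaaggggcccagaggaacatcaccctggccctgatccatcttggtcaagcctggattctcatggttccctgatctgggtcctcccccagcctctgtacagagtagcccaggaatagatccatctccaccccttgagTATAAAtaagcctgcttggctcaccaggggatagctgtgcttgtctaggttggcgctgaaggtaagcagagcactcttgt
Ace, chr11:105967698-105967997, plus strand: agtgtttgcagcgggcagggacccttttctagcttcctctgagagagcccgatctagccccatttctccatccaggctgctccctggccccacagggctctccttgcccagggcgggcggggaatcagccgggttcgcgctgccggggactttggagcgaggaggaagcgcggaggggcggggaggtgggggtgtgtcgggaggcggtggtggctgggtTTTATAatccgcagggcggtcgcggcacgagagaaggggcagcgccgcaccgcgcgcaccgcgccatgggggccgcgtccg
The match in Agt begins 30 bases before the start, and the one in Ace begins 31 bases before it and lies on the opposite strand. The table held 9 windows for 8 of the members, Ren1 included and with 2 starts for Ace. TATAAA was found on either strand in windows of 5 of these 8 members (Ren1, Agt, Ace, Agtr1b and Enpep), and in 13.6% of all 32851 windows. The core of the cAMP response element, TGACG, was found on either strand in 3 of the 8 (Ptgs2, Nos1 and Atp6ap2), and in 20.8% of all windows. The grainyhead motif AACCNGTT was found in windows of 0 of the 8, and in 2.09% of all windows. These matches describe the letters of the windows and say nothing of binding.

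The samples differed in makeup across both genotypes. Grhl1 read 4.40 to 4.92 in knockout samples, against 4.96 to 5.25 in wild-type samples, a difference of -0.38 (SE 0.07, limma adjusted p = 0.113). Its probe set was dim, with 28.6% of probe sets below its mean. Every knockout value lay below every wild-type value, and an exact permutation test over all 6435 splits gave an unadjusted p of 0.000311. The 10 measured kidney markers averaged 11.80 to 12.05 in every sample. Transcripts of 3 Y-linked genes, which mark male mice, were low in knockout replicates 13, 14 and 15 and wild-type replicates 6 and 7, with means of 3.96 to 4.26, against 8.37 to 8.68 in the other 10, and those 5 are called samples without Y-linked transcripts. Adrenal cortex markers stood out in knockout replicates 10 to 13 and wild-type replicates 2 and 3, with list means of 7.04 to 9.14, against 4.85 to 5.21 in the other 9 samples. Adrenal medulla markers stood out in the same samples except knockout replicate 11, with list means of 7.15 to 8.39. The other 10 samples had adrenal medulla means of 5.10 to 6.17. Liver markers stood out in knockout replicate 10 and wild-type replicates 3 and 7, with list means of 8.11 to 10.3, against 6.12 to 6.49 in the other 12. Between the genotypes, 9 of 9 adrenal cortex and 6 of 6 brown fat markers were higher in knockout samples (median differences 0.89 and 0.34). All 14 liver markers were lower (median -0.65), where 54.6% of all probe sets were higher. Of these markers, 3 of brown fat had a limma unadjusted p under 0.05, where 3.49% of all probe sets were higher at that level. The limma adjusted p was under 0.05 for 0 of them.

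None of the 8 measured members passed the threshold between the genotypes, which was a Benjamini-Hochberg adjusted p under 0.05 in limma over all 23521 probe sets tested. That threshold was passed by 3 probe sets, or 0.0128%. The members' differences lay between -0.07 and 0.12, with a median of 0.03, where the median over all probe sets was 0.0083. Of the 8 members, 5 were higher and 3 lower, where 54.6% of all probe sets were higher, and 1 had an unadjusted p under 0.05, where 5.55% of all probe sets did. In 0 of the 8 did the genotypes separate without overlap, as they did in 0.123% of all probe sets. In bulk kidney RNA, fewer cells of a type and less RNA per cell cannot be told apart.

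**Figure D1:**
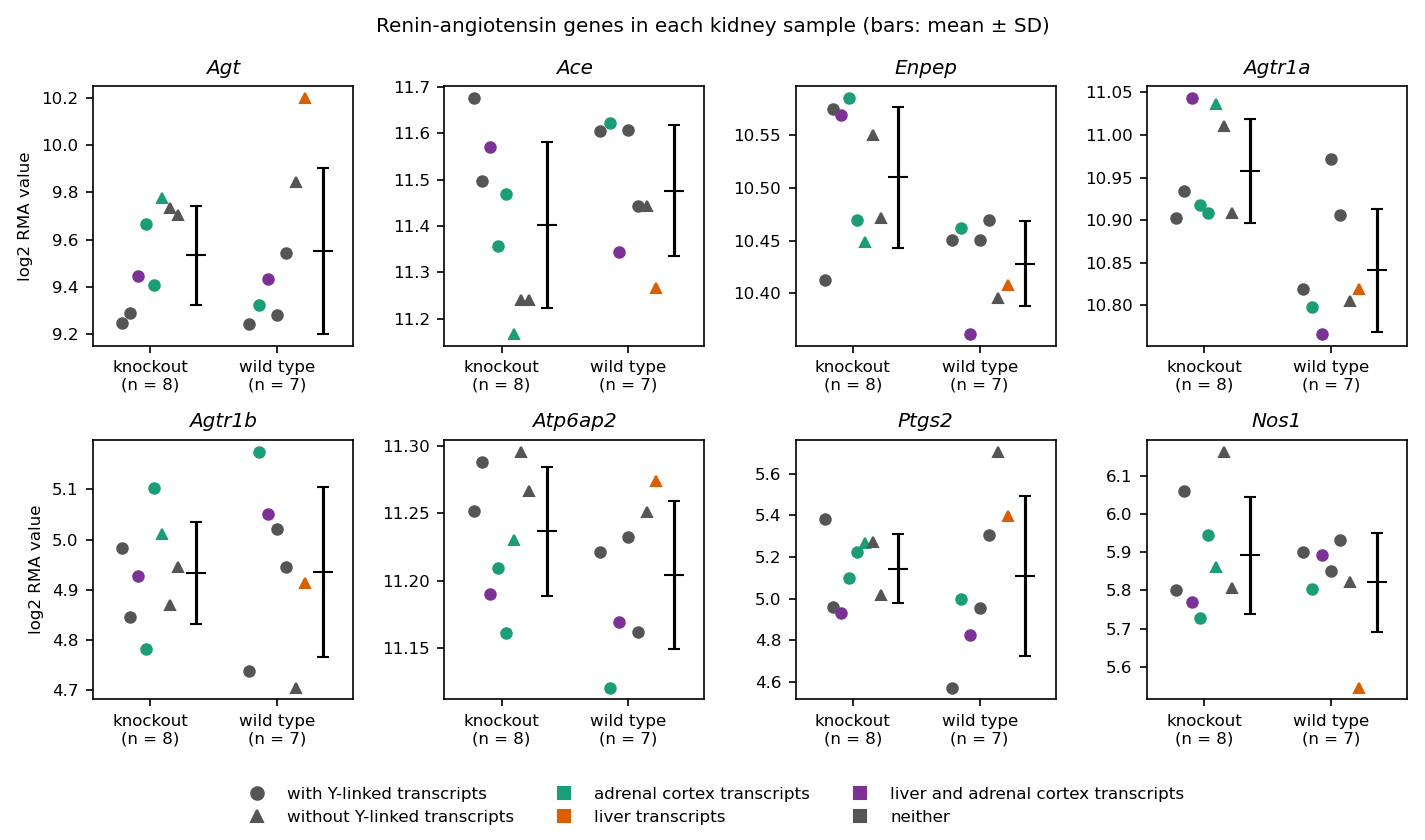
Log2 RMA values (y axis, a separate scale for each gene) of the 8 measured members in each knockout and wild-type sample, with the mean ± SD beside the points. Triangles mark the 5 samples without Y-linked transcripts and colours mark samples with liver or adrenal cortex transcripts. The genotypes overlap in every panel, and the triangles lie at the top for Agt and toward the bottom for Ace.

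Among the receptors, Agtr1a, the main type 1 receptor of the mouse kidney, had the smallest p of the members. It read 10.90 at the lowest, 10.93 at the median and 11.04 at the highest in knockout samples, against 10.77, 10.82 and 10.97 in wild-type samples. Thus 5 of the 7 wild-type values lay below every knockout value, and 3 of the 8 knockout values lay above every wild-type value. The means were 10.96 ± 0.06 in knockout and 10.84 ± 0.07 in wild-type samples (SD, n = 8 and 7), a difference of 0.12 (SE 0.04, 95% interval 0.03 to 0.21) or 1.08-fold. In limma the unadjusted p was 0.0145 and the adjusted p was 0.748, so the difference did not pass. An exact permutation test of the same difference over all 6435 splits, two-sided and unadjusted, gave p = 0.00591, as 1 of 8 such tests. Leaving out any 1 sample gave differences between 0.10 and 0.14. The difference was smaller, 0.07 (limma unadjusted p = 0.244), without the 6 samples with adrenal cortex transcripts, and 0.06 (limma unadjusted p = 0.367) in the 8 samples with neither liver nor adrenal cortex transcripts.

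Agtr1b, the second type 1 receptor of the mouse, was measured by a dim probe set, with 29.5% of probe sets below its mean. It read 4.78, 4.94 and 5.10 (lowest, median, highest) in knockout samples, against 4.71, 4.95 and 5.18 in wild-type samples. The ranges overlapped almost whole, and the difference was -0.0024 (95% interval -0.15 to 0.15, limma adjusted p = 0.999). Agtr1b is known from the adrenal gland of the mouse. In the 6 samples with adrenal cortex transcripts it read 4.78 to 5.18, with a median of 5.03, against 4.71 to 5.02, with a median of 4.91, in the other 9. The 3 highest values, 5.18 in wild-type replicate 2, 5.10 in knockout replicate 12 and 5.05 in wild-type replicate 3, all came from samples with adrenal cortex transcripts. Knockout replicate 11, with the lowest adrenal cortex list mean of these 6 samples, 7.04, read 4.78. Agtr1b read 4.93 to 5.18, with a median of 5.05, in the 5 samples with adrenal medulla transcripts. In the other 10 it read 4.71 to 5.02, with a median of 4.89. The part of adrenal transcripts in the level of Agtr1b was not tested. Agtr1a and Agtr1b are closely related in sequence, and the sequences of their probes were not used here, so signal from one on the probes of the other cannot be told apart from its own.

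Of the enzymes, Enpep, which removes the N-terminal aspartate of angiotensin II and lies in the brush border of the proximal tubule, had the next smallest p. Its values were 10.41, 10.51 and 10.59 (lowest, median, highest) in knockout samples, against 10.36, 10.45 and 10.47 in wild-type samples. Here 6 of the 8 knockout values lay above every wild-type value, and knockout replicate 8 lay low at 10.41. The means were 10.51 ± 0.07 in knockout and 10.43 ± 0.04 in wild-type samples (SD, n = 8 and 7), a difference of 0.08 (SE 0.04, 95% interval -0.0011 to 0.17). The limma adjusted p was 0.905, and the exact permutation test gave an unadjusted p of 0.0166, again as 1 of 8 tests.

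Ace, the converting enzyme of endothelium and of the proximal brush border, did not differ by genotype beyond the spread between samples. It read 11.17, 11.41 and 11.68 in knockout samples, against 11.27, 11.44 and 11.62 in wild-type samples. The difference was -0.07 (SE 0.08, 95% interval -0.25 to 0.10, limma adjusted p = 0.990). The knockout samples held both the lowest value, in replicate 13, and the highest, in replicate 8.

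Agt, the substrate of renin, is made mainly by liver and also by fat and by the proximal tubule. It read 9.24, 9.55 and 9.78 in knockout samples, against 9.24, 9.43 and 10.20 in wild-type samples. The highest value belonged to wild-type replicate 7, the sample with the highest liver list mean, 10.3. Knockout replicate 10 and wild-type replicate 3, with liver list means of 8.11 and 8.15, read 9.45 and 9.43, inside the range of the 12 samples without liver transcripts, 9.24 to 9.84. The genotype difference was -0.02 (SE 0.14, 95% interval -0.31 to 0.27, limma adjusted p = 0.998), and it was 0.09 without wild-type replicate 7 and 0.10 without the 3 samples with liver transcripts. Within the 5 samples without Y-linked transcripts, which hold wild-type replicate 7, it was -0.28 (limma unadjusted p = 0.0577), and within the 10 with them it was 0.05.

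**Figure D2:**
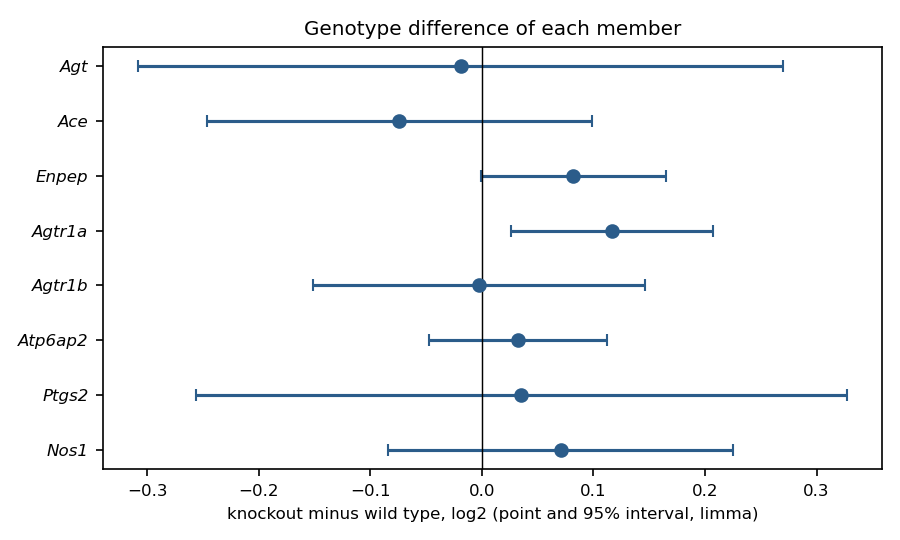
Knockout minus wild type on the log2 scale (x axis) for each measured member (y axis), as points with the 95% interval of the limma fit. The interval of Agtr1a, 0.03 to 0.21, lies above 0 before adjustment, and those of the other 7 members include 0.

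Atp6ap2, the (pro)renin receptor, had values of 11.16 to 11.30 in knockout samples, against 11.12 to 11.27 in wild-type samples. Its difference was 0.03 (SE 0.04, 95% interval -0.05 to 0.11, limma adjusted p = 0.997).

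Of the macula densa regulators, Ptgs2 was dim, with 33.1% of probe sets below its mean, and Nos1 lay a little under the middle, with 45.5%. Ptgs2 read 4.93 to 5.38 in knockout samples, with a mean of 5.15 ± 0.17 (SD, n = 8), against 4.57 to 5.71 in wild-type samples, with a mean of 5.11 ± 0.38 (SD, n = 7), so that it spread more widely in wild type. Its difference was 0.04 (SE 0.14, 95% interval -0.26 to 0.33, limma adjusted p = 0.997). Nos1 read 5.73, 5.83 and 6.16 in knockout samples, against 5.55, 5.85 and 5.93 in wild-type samples, a difference of 0.07 (SE 0.07, 95% interval -0.08 to 0.22, limma adjusted p = 0.988). The lowest Nos1 value came from wild-type replicate 7, and the 2 highest, 6.16 and 6.06, from knockout replicates 14 and 9.

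Genes around the members showed the same lack of calls by genotype. In each of 5 related lists, 0 genes passed the limma threshold in either direction. Only 0.0128% of all probe sets passed it, so lists of this size could hardly hold a call. For the counts of these lists, the shares over all probe sets were 54.6% higher and 5.55% at an unadjusted p under 0.05. Among 17 measured of 20 other genes of the renin-angiotensin system, 7 were higher and 10 lower, with a median difference of -0.0077, and 0 had an unadjusted p under 0.05. The 2 with the smallest p were Prcp, a carboxypeptidase that cuts angiotensin II, at -0.16 (SE 0.11, limma adjusted p = 0.973), and Ctsg, the protease cathepsin G of leukocytes, at -0.12 (SE 0.10, limma adjusted p = 0.980). Mas1, the receptor of angiotensin 1-7, differed by -0.08, Agtr2, the type 2 receptor, by 0.10 and Mme, the peptidase neprilysin, by -0.0092. Ctsg, Mas1 and Agtr2 were dim, with 14.5%, 25.9% and 21.6% of probe sets below them.

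Of 32 measured genes of renin cells and renin release, 17 were higher and 15 lower (median 0.01), with 1 in each direction at an unadjusted p under 0.05. These were Ptger2, a receptor of prostaglandin E2, at 0.25 (SE 0.10, limma adjusted p = 0.789), and Creb1, a transcription factor that answers cAMP, at -0.15 (SE 0.05, limma adjusted p = 0.666). The Ptger2 probe set was dim, with 13.6% of probe sets below it. Of 9 genes listed for the macula densa, 7 were higher and 2 lower (median 0.01), with Pappa2 alone at an unadjusted p under 0.05. The list is not specific to the macula densa, since Slc12a1 and Umod in it also served as kidney markers here. Pappa2, a secreted protease that cleaves binding proteins of insulin-like growth factors, read 4.19 ± 0.26 in knockout and 3.89 ± 0.13 in wild-type samples (SD, n = 8 and 7), a difference of 0.29 (SE 0.10, limma adjusted p = 0.736) on a probe set with 15.6% of probe sets below it, and the growth factor gene Bmp3 differed by 0.12 (SE 0.08, limma adjusted p = 0.973).

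Prostanoid and nitric oxide genes had the highest median of these lists, 0.05, with 20 of 26 higher, where 54.6% of all probe sets were higher. At an unadjusted p under 0.05, 3 were higher and 0 lower, where 3.49% of all probe sets were higher at that level and 2.06% lower. The 2 with the smallest p were Tbxas1, thromboxane synthase, at 0.25 (SE 0.08, limma adjusted p = 0.606) and Nos1ap, an adaptor of neuronal nitric oxide synthase, at 0.13 (SE 0.04, limma adjusted p = 0.738). The third was Ptger2, which is also in the renin release list. This list was also higher, by 0.22 at the median, in the samples without Y-linked transcripts, 3 knockout and 2 wild-type. Its part in the genotype counts was not tested. Of 17 V-ATPase subunits, the pump that Atp6ap2 assists, 14 were higher and 3 lower (median 0.02). Atp6v1f alone had an unadjusted p under 0.05, where 5.55% of all probe sets did. The difference of Atp6v1f was 0.16 (SE 0.07, limma adjusted p = 0.889), and that of Atp6v1h was 0.06 (SE 0.04, limma adjusted p = 0.973).

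**Figure D3:**
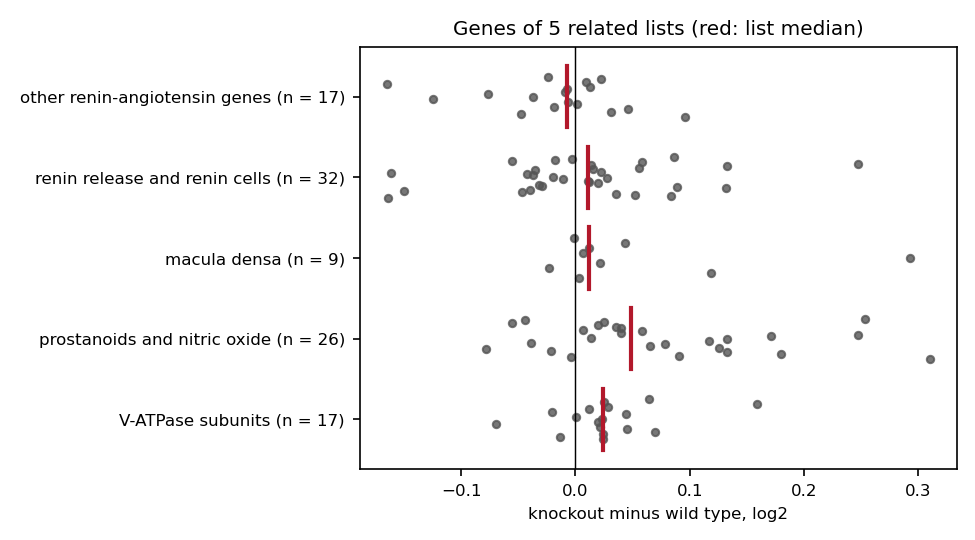
Knockout minus wild type on the log2 scale (x axis) for each measured gene (grey point) of the 5 related lists (rows), with the median of each list in red. The medians lie between -0.0077 and 0.05, and no point passed the adjusted threshold.

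Agt and Ace differed between samples without and with Y-linked transcripts, in a comparison that was added after the values were seen. It set the 5 samples without these transcripts, 3 knockout and 2 wild-type, against the 10 with them, 5 of each genotype, in a limma fit with genotype as a second term. Of all probe sets, 24.9% passed the adjusted threshold here, and 2 of the 8 members did, Agt and Ace, a share close to that background. Any unnamed batch that follows this division cannot be told apart from it.

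Agt was higher in the samples without Y-linked transcripts. It read 9.78, 9.74 and 9.70 in knockout replicates 13 to 15 and 9.84 and 10.20 in wild-type replicates 6 and 7, against 9.24, 9.36 and 9.66 (lowest, median, highest) in the 10 samples with them. Each of the 5 values lay above all of the 10, and 11.5% of all probe sets separated these samples without overlap in one direction or the other. The difference, without minus with, was 0.47 (SE 0.09) or 1.39-fold, with a limma adjusted p of 0.000708, and the call was made in 15 of 15 fits that left out 1 sample, with 0.37 (limma adjusted p = 0.00244) without wild-type replicate 7. Without the 3 samples with liver transcripts it was 0.39 (limma adjusted p = 0.00561). Most markers of white fat, a known source of Agt, were also higher in these 5 samples. Their list mean was 7.97 to 8.43 in the 5 samples, against 7.42 to 7.96 in the 10. Past the threshold, 4 of 6 measured markers were higher, among them Adipoq by 0.82, where 14.4% of all probe sets were higher. Lep, another of the 6, was not, at 5.04 to 6.26 in the 5 samples against 5.44 to 7.31 in the 10. In 0 samples of either genotype did the fat list mean lie more than 1 log2 unit above the median. The part of fat in the Agt difference was not tested.

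Ace was lower in the samples without Y-linked transcripts. It read 11.17, 11.24 and 11.24 in knockout replicates 13 to 15 and 11.44 and 11.27 in wild-type replicates 6 and 7, against 11.34, 11.53 and 11.68 (lowest, median, highest) in the samples with them. Wild-type replicate 6 lay inside the range of the 10, and the other 4 lay below it. The difference was -0.24 (SE 0.06), or 1.18-fold lower, with a limma adjusted p of 0.00899. The call was made in 15 of 15 fits that left out 1 sample. It was lost, at -0.24 (limma adjusted p = 0.0952), in the 8 samples without liver or adrenal cortex transcripts. Endothelium, one site of Ace, moved the other way, with a list mean of 9.40 to 9.55 in the 5 samples, against 9.19 to 9.39 in the 10. Proximal tubule markers averaged 12.41 to 12.49, against 12.46 to 12.57, so these ranges overlapped. Of the 8 proximal tubule markers, 3 were higher and 2 lower past the threshold, where 14.4% of all probe sets were higher and 10.6% lower. Their part in the Ace difference was not tested.

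**Figure D4:**
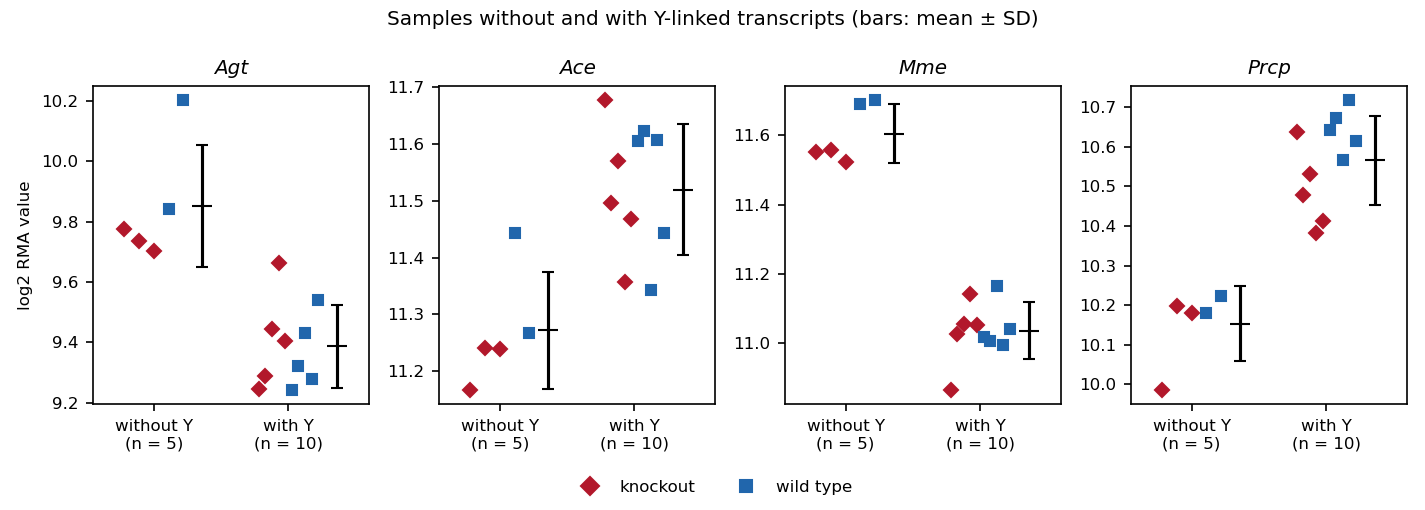
Log2 RMA values (y axis, a separate scale for each gene) of Agt, Ace and the angiotensin-cutting peptidases Mme and Prcp in the 5 samples without and the 10 samples with Y-linked transcripts, coloured by genotype, with the mean ± SD beside the points. Agt and Mme are higher and Prcp is lower in all 5 samples than in any of the 10, and Ace is lower in 4 of the 5. Of all probe sets, 11.5% separated these samples without overlap.

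Ptgs2 was 0.31 higher (SE 0.13, limma adjusted p = 0.0955) in the samples without Y-linked transcripts and did not pass, although it passed in 2 of 15 fits that left out 1 sample, those without knockout replicate 8 (0.35, limma adjusted p = 0.0486) or 15 (0.39, limma adjusted p = 0.0459). The difference was 0.19 (limma adjusted p = 0.332) without wild-type replicate 6. The other members differed by 0.0072 for Agtr1a, -0.07 for Agtr1b, -0.03 for Enpep, -0.04 for Nos1 and 0.06 for Atp6ap2 (limma adjusted p from 0.236 to 0.929). For Agtr1a and Enpep the genotype difference, once adjusted for the mean of the Y-linked genes, was 0.12 and 0.08. The interaction of genotype and Y-linked transcripts passed the threshold in 0 of 23521 probe sets in limma, with 1655 at an unadjusted p under 0.05. Among the members it had an unadjusted p under 0.05 for Ptgs2 alone (-0.55, unadjusted p = 0.0255, limma adjusted p = 0.676), whose 2 wild-type samples without Y-linked transcripts read 5.71 and 5.40.

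Of the 17 other genes of the system, 2 were higher and 4 lower past the threshold between these samples, where 14.4% of all probe sets were higher and 10.6% lower. Those named here were chosen after their values were seen. Mme, neprilysin, which makes angiotensin 1-7 in the brush border, read 11.60 ± 0.08 without (SD, n = 5) and 11.04 ± 0.08 with Y-linked transcripts (SD, n = 10), a difference of 0.57 (SE 0.05) or 1.49-fold. Prcp read 10.15 ± 0.09 without and 10.57 ± 0.11 with them, a difference of -0.40 (SE 0.05) or 1.32-fold lower. Both separated the samples without overlap, as 11.5% of all probe sets did. Mas1 was lower by 0.68 on the log2 scale (SE 0.16, limma adjusted p = 0.00518), and the mast cell carboxypeptidase Cpa3 was higher by 0.52 (SE 0.13, limma adjusted p = 0.00811). Both probe sets were dim, with 25.9% and 31.5% of probe sets below them. Agtrap, which binds the type 1 receptor, was at -0.20 (limma adjusted p = 0.0295, and 0.0788 without the samples with liver transcripts) and the peptidase Nln at -0.21 (limma adjusted p = 0.0229).

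Over the 15 samples, the genes whose values ran most like those of Agt were Acaa2 (Pearson r = 0.96), Cyp4f14 (0.95) and Hadha (0.94), of which Acaa2 and Hadha encode enzymes of mitochondrial fatty acid oxidation. Within the 10 samples with Y-linked transcripts these were 0.85, 0.73 and 0.74. The genes most like Ace were Pm20d1 (0.94), Anks1b (0.94) and Tmem30a (0.94), with 0.82, 0.86 and 0.93 within the 10. For Agtr1a they were Rufy2 (0.84), Tmem9b (0.84) and Cttn (0.81), and for Enpep Lrrc29 (0.88), Cbx2 (0.87) and Gm13752 (0.86). The highest r was 0.87 for Ptgs2, with Lox, 0.86 for Agtr1b, with Ccdc74a, 0.86 for Atp6ap2, with Osgep, and 0.83 for Nos1, with Trp53inp2. Each is the highest of 22180 genes over samples that also differ in Y-linked transcripts and tissue makeup, and is given as a description.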

How the data were processed

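Kidney RNA of 8 knockout and 7 wild-type mice was measured, with group and number of each sample read from its title. Per the labels' protocols, 500 ng of total RNA went into the Ambion WT Expression kit with biotin as the label. The authors deposited log2 values made with RMA, per the submitters' processing notes, which subtracts background and equalises the distributions of the arrays. The sources used here name no software version or genome build. No scanner files were used, so signal over background is unknown; precision is limited by the number of arrays.

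Of 41345 probe sets, 23521 with exactly 1 gene symbol were fitted with limma 3.58.1 in R 4.3.3 (lmFit and eBayes, knockout minus wild type, no covariate, no filter), two-sided, with Benjamini-Hochberg adjustment over all of them. Where a gene had several probe sets, the one with the highest mean stood for it. Symbols were updated by Entrez ID for 23328 probe sets. Liver, adrenal cortex or adrenal medulla transcripts were called present in a sample where the mean of that marker list lay more than 1 log2 unit above the median of all samples. Y-linked transcripts were called by the midpoint between the lowest and highest list mean. The members and lists were chosen with earlier results of these data known. Named genes are the members, Grhl1, the 2 list genes with the smallest unadjusted p, and the 3 genes most correlated with a member; other named genes were chosen after their values were seen. Nothing in the labels says that the mice came from separate litters, so p-values measure the spread between these samples. The fit was tested on simulated data.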

Additional observations from a re-analysis of the deposited data

Results flagged for a closer look

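Nos1 in wild-type replicate 7 read 5.55, the lowest of the 7 wild-type samples, and the nearest of the others read 5.80. The gap was 0.669 of the range of the group, above Dixon's critical value of 0.568. This was the only such sample in the 16 combinations of the 8 members and 2 genotypes. Chance gives about 1 in every 20 combinations, so 1 in 16 is near what chance alone gives. Without it the genotype difference of Nos1 was 0.025, against 0.07 with it. The same sample had the highest liver list mean and the highest Agt value.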

How the results depend on the processing

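No member passed the adjusted threshold under any alternative fit of the genotype difference. The lowest limma adjusted p was 0.410, for Agtr1a. Ace, Agtr1a, Enpep and Atp6ap2 kept their sign in every fit but moved in size outside the fits that left out 1 sample, Ace from -0.17 without liver samples to -0.011 in samples with Y-linked transcripts, Agtr1a from 0.063 without liver or adrenal samples to 0.17 without Y-linked transcripts, Enpep from 0.056 without liver samples to 0.091 with all 3 list means as covariates, and Atp6ap2 from 0.0020 without Y-linked transcripts to 0.059 without liver or adrenal samples. The unadjusted exact permutation test passed for Agtr1a (0.12, p = 0.00591) and Enpep (0.082, p = 0.0166). Agt was -0.28 in samples without Y-linked transcripts and turned to 0.046 in samples with Y-linked transcripts, 0.099 without liver samples, 0.016 without liver or adrenal samples, 0.090 with both list means as covariates, 0.025 with array weights and 0.0061 with the Y-linked mean added to these covariates, a setting chosen after seeing the data. Leaving out 1 sample gave -0.070 to 0.089 for Agt. Agtr1b turned to 0.0024 with the Y-linked mean, 0.13 without Y-linked transcripts, 0.046 without adrenal, 0.017 without liver and 0.058 without either kind of sample, and ranged from -0.041 to 0.038 with 1 sample left out. Ptgs2 turned to -0.37 in samples without Y-linked transcripts and -0.028 without adrenal samples, and ranged from -0.054 to 0.14 with 1 sample left out. Nos1 turned to -0.016 in samples with Y-linked transcripts, was 0.26 in those without them and 0.025 without wild-type replicate 7. The cause was not tested. Against 3 probe sets past the threshold, the count was 14 with the Y-linked mean, 8 with all 3 list means, 7 over all 41345 probe sets, 1 without Y-linked samples, 1 without liver or adrenal samples and 0 among the brighter 11761 probe sets (771 at an unadjusted p under 0.05), with 2 to 6 when 1 sample was left out, the 6 without knockout replicate 8. That last filter dropped Agtr1b, Ptgs2 and Nos1, and no member had another probe set of its own. No paired analysis was possible because the genotypes share no replicate number.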

Other observations

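Genes of renin release, prostanoids and nitric oxide also differed between the 5 samples without and the 10 samples with Y-linked transcripts. Of 32 genes of renin cells and renin release, 14 were higher past the threshold and 0 lower, where 14.4% of all probe sets were higher and 10.6% lower. Among them were the adenylyl cyclase Adcy6 (0.52, SE 0.06), the phosphodiesterase Pde3b (0.60, SE 0.08), the calcium-sensing receptor Casr (0.40, SE 0.07) and the pericyte gene Rgs5 (0.42, SE 0.05). Of 26 prostanoid and nitric oxide genes, 15 were higher and 1, Ddah1, was lower. Arg2, a mitochondrial arginase, read 10.6 ± 0.11 without (SD, n = 5) and 7.91 ± 0.22 with Y-linked transcripts (SD, n = 10), a difference of 2.65 (SE 0.10) or 6.29-fold. Hpgd, which inactivates prostaglandins, read 9.79 to 10.13 without and 8.28 to 8.65 with them, a difference of 1.53 (SE 0.06) or 2.89-fold, and both guanylyl cyclase subunits, Gucy1a1 and Gucy1b1, were higher by 0.52 and 0.51. Smooth muscle markers moved with these genes, with a list mean of 8.43 to 8.75 in the 5 samples, against 8.09 to 8.47 in the 10. Other lists also moved, with 4 of 7 endothelium, 4 of 6 white fat and 3 of 7 leukocyte markers higher past the threshold and 0 lower. Of 10 kidney markers 4 were higher and 1 lower. Of 9 genes in the macula densa list 5 were higher, among them Slc12a1 by 0.27 and Kcnj1 by 0.39, and 1 was lower. The part of these lists in the differences was not tested. These genes were named after their values were seen.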
